A study of Homo sapiens with 12 samples.

Results

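The genes described here are 8 transcriptional targets of the tumour suppressor p53, measured in 3 human cancer cell lines that had received G-quadruplex (G4) oligonucleotides or controls. They were CDKN1A, MDM2, GDF15, SESN1, ZMAT3, RRM2B, TP53INP1 and PHLDA3. Their members on the array were all probe sets whose annotation names only that gene, which gave 26 of the 54675 probe sets of the deposited table and 26 of the 41091 that name a single gene. MDM2 had 10 probe sets, ZMAT3 had 5, GDF15 and TP53INP1 had 3 each, PHLDA3 had 2, and CDKN1A, SESN1 and RRM2B had 1 each. PC-3 is a prostate, HBC4 a breast and MKN74 a gastric cancer line. Each line was reverse-transfected with Lipofectamine RNAiMAX in 4 ways: the RNA oligonucleotides (uuaccc)4 and (uuaggg)4, the reagent alone, or AS1411, a guanine-rich aptamer that binds nucleolin. All groups therefore share the transfection reagent. About 100 pmol was given to 300000 cells per well, and cells grew in low-adhesion plates until RNA was taken at 72 h. There was 1 array per line and treatment, 12 in all, with 6 arrays of the G4-forming oligonucleotides (uuaggg)4 and AS1411 and 6 control arrays. The labels name no separate cultures, so p-values measure the spread between these arrays and their number limits the precision.

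p53 is a transcription factor that is held at a low level in unstressed cells because MDM2, an E3 ubiquitin ligase, marks it for degradation. Damage or stress releases it, and it then binds paired decamers in the regulatory DNA of its targets. These targets stop the cell cycle, repair DNA, buffer oxidative stress or lead to apoptosis, and MDM2 is itself a target, which closes a negative feedback loop. PC-3 lacks functional p53, as is known of the line. The labels give no p53 status for any of the lines, and that of HBC4 and MKN74 is not given in the sources used here. A difference of PC-3 from the other lines is a difference between lines, in which p53 status and every other property of the line cannot be told apart.

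RefSeq promoter windows (GRCh38.p14, 250 bases before to 50 after a start site) were given for 5 of the 8 genes, in 11 windows. They were searched on both strands for the p53 response element, 20 positions with no spacer, its core CNNGNNNNNNCNNG fixed and up to 3 mismatches elsewhere. A match lay in 4 windows of 3 genes, MDM2, SESN1 and GDF15. Over all 35116 windows 1.12% held such a match, and 1.37% of the 27305 genes had at least 1. The MDM2 stretch before its internal start site is shown because 2 MDM2 probe sets fell with the G4 oligonucleotides in the results that follow. It spans chr12:68808767-68809016 on the plus strand, with the match in capitals.

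MDM2: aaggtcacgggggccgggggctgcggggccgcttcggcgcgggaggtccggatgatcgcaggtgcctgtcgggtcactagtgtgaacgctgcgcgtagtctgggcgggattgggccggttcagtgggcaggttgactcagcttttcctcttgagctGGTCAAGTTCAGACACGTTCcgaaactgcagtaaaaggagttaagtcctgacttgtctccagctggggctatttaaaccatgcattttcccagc

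The MDM2 match, chr12:68808923-68808942, had 2 mismatches and began 94 bases before the start site. Only 0.285% of all windows held a match with at most 2 mismatches. SESN1 had a match with 3 mismatches that began 49 bases before a start site, at chr6:109009018-109009037 and read on the minus strand.

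SESN1: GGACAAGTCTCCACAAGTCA

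The GDF15 match had 3 mismatches and lay downstream of the start site, from base 29. A match describes these letters and is not evidence of binding.

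The deposited values were taken to be on a log2 scale. They are centred, so that each probe set has a median of 0 over the 12 arrays. They show differences between arrays and no level of any gene. A value of 1 is 2-fold above the probe set's own median. Each array measured bulk RNA, in which fewer expressing cells and less RNA per cell cannot be told apart. The lowest correlation between 2 arrays of the same line was 0.872 and the highest between arrays of different lines -0.170, a contrast that centring enlarges. Line identity was checked on marker genes. Breast markers were highest in HBC4 for 6 of 6 genes, but ANKRD30A and PIP differed by only 0.14 and 0.30 between line means, and GATA3 was hardly higher in HBC4 (0.21) than in MKN74 (0.03). Of 5 measured prostate markers, HOXB13 and TMPRSS2 were highest in PC-3, while KLK2 and KLK3, which mark androgen-responsive prostate cells, were not, and ACP3 was highest in MKN74 (0.66, against -0.05 in PC-3). Of 8 stomach and intestine markers, VIL1 and GKN1 were highest in MKN74, by a range of line means of only 0.61 and 0.22. TFF1 and TFF2 were highest in PC-3, with ranges of 8.30 and 8.86. The other 4, CDH17, CLDN18, LGALS4 and CDX1, were highest in HBC4, with ranges of 0.14 to 0.34. The defining gastric markers therefore did not set MKN74 apart. The 2 measured leukocyte markers differed by at most 0.15 between line means.

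**Figure D1:**
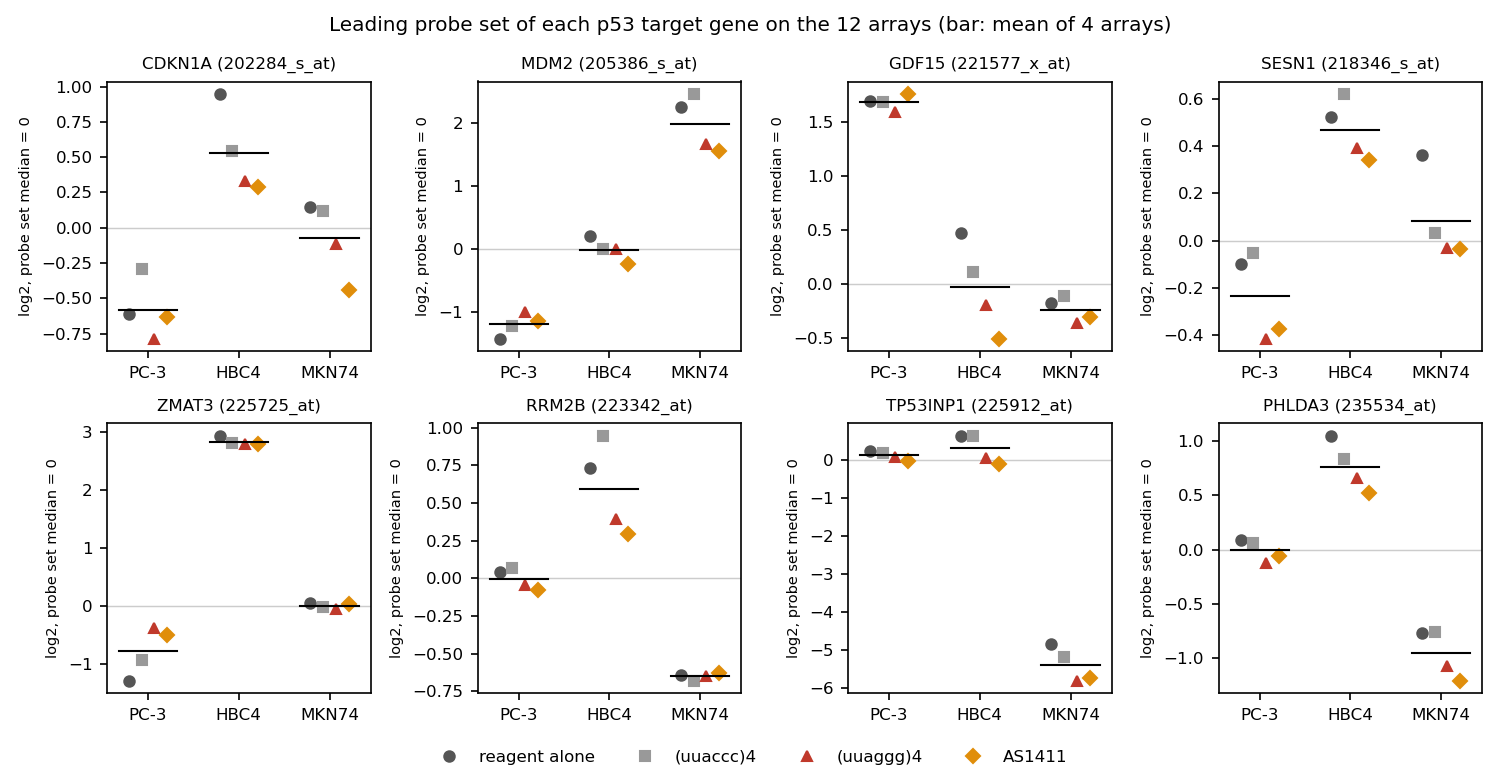
Values of the leading probe set of each gene, the one with the largest SD over the 12 arrays, on the centred log2 scale (vertical axis) by cell line (horizontal axis). Points are single arrays, with symbols for the 4 treatments, and bars are means of 4 arrays; PC-3 lies lowest for CDKN1A, MDM2, SESN1 and ZMAT3 and highest for GDF15, and the MKN74 arrays of TP53INP1 lie near -5.

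The first comparison asked how the p53 targets differ between the lines. PC-3 lay below the other lines for MDM2, ZMAT3, CDKN1A and SESN1, above them for GDF15, and between or beside them for RRM2B, TP53INP1 and PHLDA3. Against the mean of HBC4 and MKN74, 16 of the 26 probe sets were lower in PC-3 and 4 were higher (limma, adjusted p under 0.05), over 6 of the 8 genes. Among all 41091 probe sets tested 32.4% were lower and 26.8% higher, so that a call by itself is common between these lines. The median difference of the members was -0.66, against -0.06 over all probe sets. All 4 PC-3 arrays lay below all 8 other arrays for 15 of the 26 probe sets (57.7%), against 14.1% of all probe sets. Those 15 belong to MDM2, ZMAT3 and SESN1 only. Of the 16 lower calls, MDM2 gave 9, ZMAT3 5, and CDKN1A and SESN1 1 each. Probe sets of the same gene are not separate support, so these shares describe few genes and not the 8 as a whole. In pairs of lines, 21 members differed between PC-3 and HBC4 (background 54.5%), of which 18 were lower in PC-3. Between PC-3 and MKN74 22 differed (background 58.8%), 16 of them lower in PC-3. Between HBC4 and MKN74, the pair without PC-3, 17 differed (background 50.5%), 11 of them higher in HBC4.

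**Figure D2:**
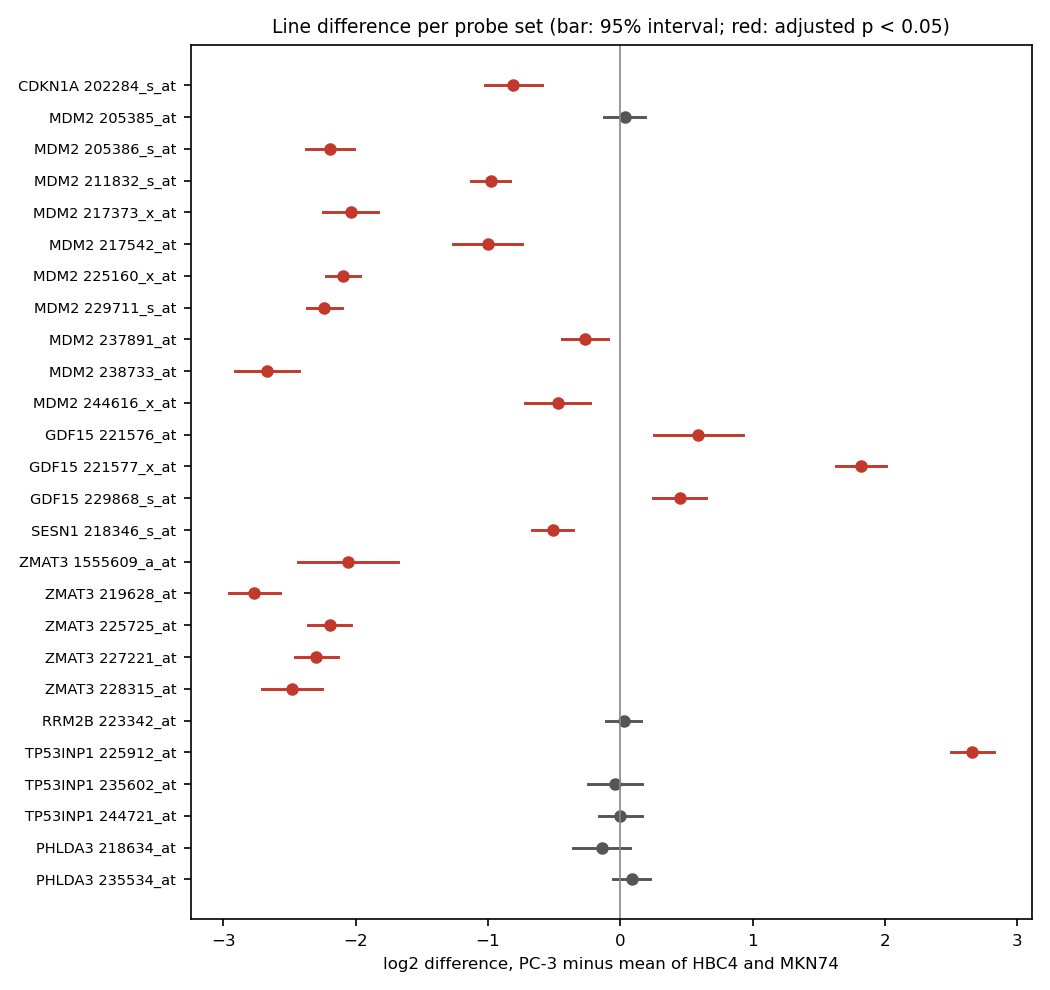
Difference of PC-3 from the mean of HBC4 and MKN74 in log2 units (horizontal axis) for the 26 probe sets (vertical axis). Points are limma estimates over 12 arrays, bars are 95% intervals and red marks an adjusted p under 0.05; all 5 ZMAT3 probe sets and 9 of 10 MDM2 probe sets lie left of 0, and the 3 GDF15 probe sets lie right of it.

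MDM2, the ligase that marks p53 for degradation, had 10 probe sets. The leading probe set 205386_s_at read -1.44 with the reagent alone, -1.23 with (uuaccc)4, -1.0 with (uuaggg)4 and -1.15 with AS1411 in PC-3. In HBC4 it lay between -0.25 and 0.20. In MKN74 it read 2.26, 2.47, 1.67 and 1.55 in the same order of treatments. The arrays of the lines did not overlap, with MKN74 highest and PC-3 lowest. PC-3 was 4.57-fold below the mean of the other lines (difference -2.19, 95% interval -2.37 to -2.01, adjusted p = 6.5e-10), and HBC4 was 4.00-fold below MKN74 (adjusted p = 6.47e-09). Of the 10 probe sets 9 were lower in PC-3, from -2.67 for 238733_at to -0.27 for 237891_at. The exception, 205385_at (0.03, adjusted p = 0.708), had an SD of 0.11 over the 12 arrays and separated no lines.

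ZMAT3, a zinc finger RNA-binding protein induced by p53, differed most evenly across its probe sets. Probe set 225725_at read -1.30, -0.94, -0.38 and -0.51 in PC-3 with the reagent alone, (uuaccc)4, (uuaggg)4 and AS1411. It read 2.94, 2.82, 2.80 and 2.79 in HBC4 and lay between -0.06 and 0.04 in MKN74. The order HBC4, MKN74, PC-3 held for all 5 probe sets with no overlap between lines. PC-3 was lower than the mean of the others on each, with differences from -2.76 to -2.06, that is 4.17-fold to 6.80-fold lower, with adjusted p of 7.71e-07 or less. HBC4 exceeded MKN74 by 2.84 on 225725_at (adjusted p = 1.73e-10).

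CDKN1A encodes the cyclin-dependent kinase inhibitor through which p53 arrests the cell cycle. In PC-3 its probe set read -0.61 with the reagent alone, -0.29 with (uuaccc)4, -0.79 with (uuaggg)4 and -0.63 with AS1411. In HBC4 the values were 0.95, 0.55, 0.33 and 0.29, and in MKN74 0.15, 0.12, -0.12 and -0.44. PC-3 lay below HBC4 on all arrays and overlapped MKN74. PC-3 was 1.75-fold lower than the mean of the others (-0.81, 95% interval -1.03 to -0.59, adjusted p = 1.95e-05), 2.16-fold lower than HBC4 and 1.42-fold lower than MKN74 (adjusted p = 0.00217).

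SESN1 encodes sestrin 1, which restrains mTORC1 signalling and lowers oxidative stress. In PC-3 it read -0.10, -0.05, -0.42 and -0.37 for the reagent alone, (uuaccc)4, (uuaggg)4 and AS1411. In HBC4 it read 0.52, 0.62, 0.39 and 0.34, and in MKN74 0.36, 0.03, -0.03 and -0.03. PC-3 arrays lay below all others, and HBC4 and MKN74 overlapped. The difference of PC-3 was -0.51 (1.43-fold, adjusted p = 5.03e-05).

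RRM2B, the p53-induced small subunit of ribonucleotide reductase, put PC-3 in the middle. Its values were 0.04, 0.07, -0.04 and -0.08 in PC-3, 0.74, 0.95, 0.40 and 0.29 in HBC4, and between -0.68 and -0.63 in MKN74. The lines did not overlap. PC-3 was 1.51-fold below HBC4 (adjusted p = 1.66e-05) and 1.57-fold above MKN74 (adjusted p = 7e-06), so that it did not differ detectably from their mean (0.03, 95% interval -0.11 to 0.16, adjusted p = 0.742).

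GDF15 encodes a secreted stress cytokine of the TGF-beta family that is induced by p53 and by other stress pathways. Probe set 221577_x_at read 1.69, 1.68, 1.59 and 1.76 in PC-3 with the reagent alone, (uuaccc)4, (uuaggg)4 and AS1411. In HBC4 it read 0.47, 0.11, -0.20 and -0.51, and in MKN74 -0.18, -0.11, -0.37 and -0.31. PC-3 lay above every other array. It was 3.53-fold higher than the mean of the others (1.82, adjusted p = 4.78e-09), and the other probe sets gave 0.59 (221576_at, adjusted p = 0.0055) and 0.45 (229868_s_at, adjusted p = 0.0011). Between HBC4 and MKN74 none of the 3 passed (smallest adjusted p = 0.102).

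TP53INP1 encodes a stress protein that promotes autophagy and cell death. Probe set 225912_at read 0.24, 0.17, 0.07 and -0.04 in PC-3 and 0.63, 0.62, 0.04 and -0.11 in HBC4. In MKN74 it read -4.84, -5.19, -5.82 and -5.75. MKN74 stood far below the other lines, which overlapped. PC-3 was 45.5-fold and HBC4 51.8-fold above MKN74 (adjusted p = 7.2e-13 and 7.48e-13), whereas PC-3 and HBC4 differed by -0.19 (95% interval -0.38 to 0.00, adjusted p = 0.086). The difference of PC-3 from the mean of the others, 2.66, therefore rests on MKN74. The other 2 probe sets, 235602_at and 244721_at, had SDs of 0.16 and 0.11 over the 12 arrays, and their line means differed by no more than 0.07.

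PHLDA3, which blocks Akt at the membrane, also put PC-3 in the middle. Probe set 235534_at read 0.09, 0.06, -0.12 and -0.06 in PC-3, 1.05, 0.84, 0.66 and 0.52 in HBC4, and -0.77, -0.76, -1.07 and -1.21 in MKN74. The lines did not overlap. HBC4 exceeded MKN74 by 1.72 (3.29-fold, adjusted p = 3.2e-09), and PC-3 differed from the mean of the others by 0.09 (adjusted p = 0.272). On 218634_at the order was the same and PC-3 and MKN74 overlapped.

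The second comparison asked what the G4-forming oligonucleotides changed against both controls, with the cell line as a block. MDM2 fell on 2 of its 10 probe sets, TP53INP1 on 1 of 3 and PHLDA3 on 1 of 2. No member rose. These 4 calls are 15.4% of the 26 probe sets, against 2.14% of all probe sets called in either direction and 1.53% called lower. The changes were small, between 1.23-fold and 1.45-fold. Of the members 17 had a negative difference and the median was -0.11, against 45.6% negative and a median of 0.01 over all probe sets. Both G4 arrays lay below both control arrays in each of the 3 lines for 6 of the 26 (23.1%), against 3.51% of all probe sets. These were CDKN1A, SESN1, MDM2 225160_x_at and 229711_s_at, TP53INP1 225912_at and PHLDA3 235534_at.

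**Figure D3:**
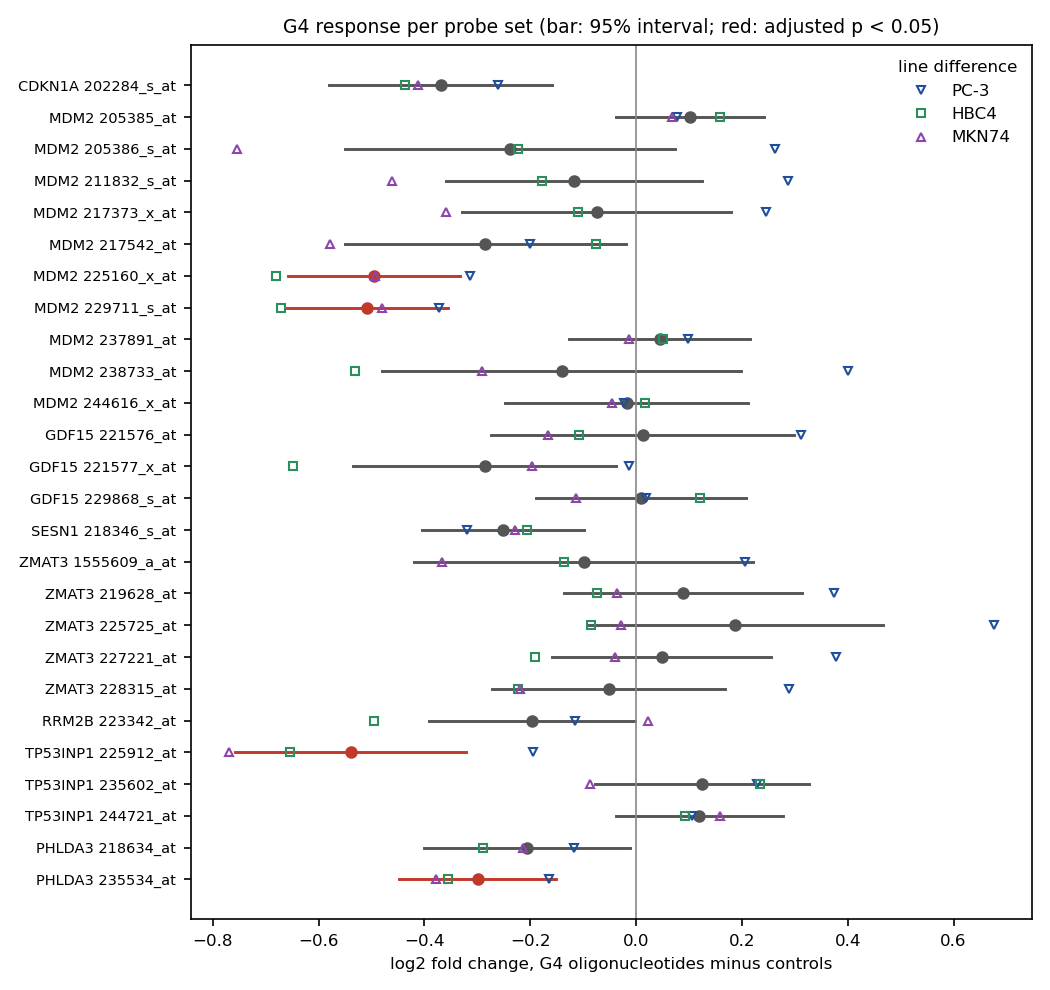
Difference of the G4-forming oligonucleotides from the controls in log2 units (horizontal axis) for the 26 probe sets (vertical axis). Filled points are limma estimates over 12 arrays with 95% intervals, red for an adjusted p under 0.05, and open symbols are the differences within each line; the 4 red points lie between -0.54 and -0.30.

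For MDM2 229711_s_at the values in PC-3 were -1.59 with the reagent alone and -1.67 with (uuaccc)4, against -2.02 with (uuaggg)4 and -1.99 with AS1411. In HBC4 they were 0.38 and 0.29 against -0.38 and -0.29, and in MKN74 1.01 and 1.14 against 0.54 and 0.64. Both G4 arrays lay below both controls in each line. The mean change was -0.51 ± 0.15 (SD, n = 3 lines, 1.42-fold lower, adjusted p = 0.0044). The values of 225160_x_at were -1.44 and -1.43 against -1.80 and -1.71 in PC-3, 0.42 and 0.31 against -0.31 and -0.33 in HBC4, and 1.29 and 1.16 against 0.79 and 0.67 in MKN74. Its mean change was -0.50 ± 0.18 (SD, n = 3, adjusted p = 0.00761). The 2 probe sets may share target sequence, and with line means removed they correlated at 0.955 over the 12 arrays, so they are not separate support. The other 8 MDM2 probe sets lay between -0.28 and 0.10, and none passed. The leading one, 205386_s_at, gave -0.24 ± 0.51 (SD, n = 3, adjusted p = 0.417) and correlated with 229711_s_at at 0.498.

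For TP53INP1 225912_at the decline was -0.54 ± 0.30 (SD, n = 3 lines, 1.45-fold lower, adjusted p = 0.0197), made up of -0.20 for PC-3, -0.65 for HBC4 and -0.77 for MKN74. MKN74 lay far below the other lines on this probe set, and its nearness to background cannot be read. Both G4 arrays were below both controls in each line. The other TP53INP1 probe sets gave 0.12 each and did not pass. The call was lost (adjusted p of 0.0527 to 0.0638) without any of the 4 HBC4 arrays or without the MKN74 array of (uuaggg)4. PHLDA3 235534_at changed by -0.30 ± 0.12 (SD, n = 3, adjusted p = 0.0476), and 218634_at by -0.21 ± 0.09 (adjusted p = 0.253). The PHLDA3 call is at the edge of the threshold: it held in 1 of 12 fits that each left out an array, the one without AS1411 in PC-3, and the adjusted p rose to as much as 0.117 in the others. Both MDM2 calls held in all 12. Without all arrays of HBC4, or without all of MKN74, no member passed, and with 1 mean value per gene over its probe sets none of the 8 genes passed.

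CDKN1A and SESN1 had no overlap between the G4 arrays and the controls in any line and did not pass. CDKN1A gave -0.37 ± 0.10 (SD, n = 3, adjusted p = 0.074), made up of -0.26 for PC-3, -0.44 for HBC4 and -0.41 for MKN74. Without the reagent-alone array of PC-3 it passed (-0.45, adjusted p = 0.0358). SESN1 gave -0.25 ± 0.06 (SD, n = 3, adjusted p = 0.0929). GDF15 221577_x_at gave -0.29 (adjusted p = 0.218), RRM2B -0.20 (adjusted p = 0.279), and the 5 ZMAT3 probe sets between -0.10 and 0.19.

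Single treatments were also compared with each other, over 3 arrays each. (uuaggg)4 had an RNA oligonucleotide as its control, whereas AS1411, a DNA oligonucleotide, had only the reagent alone. No DNA oligonucleotide served as a control. For AS1411, here and in the pooled comparison, G4 formation and the delivery of DNA therefore cannot be told apart. No member passed for (uuaggg)4 against its cytosine counterpart (uuaccc)4 (background 0.217%, 6 members at an unadjusted p under 0.05, against 9.99% of all probe sets) or for AS1411 against the reagent alone (background 0.465%, 9 members unadjusted, against 12.7%). The changes of MDM2 229711_s_at were -0.54 (95% interval -0.75 to -0.32, adjusted p = 0.0662) and -0.48 (-0.69 to -0.26, adjusted p = 0.071) in these comparisons. For TP53INP1 225912_at they were -0.44 (adjusted p = 0.355) and -0.64 (adjusted p = 0.0859). The 2 controls differed on no member and on no probe set in all (limma, background 0%), with 0 members and 1224 probe sets at an unadjusted p under 0.05. AS1411 and (uuaggg)4 likewise differed on none (background 0%), with 2 members and 1955 probe sets unadjusted. The difference between these was 0.07 (95% interval -0.15 to 0.29) for MDM2 229711_s_at, -0.06 (-0.37 to 0.25) for TP53INP1 225912_at and -0.07 (-0.37 to 0.23) for CDKN1A.

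Within single lines the 2 G4 arrays were set against the 2 control arrays, which gives the comparison of a line without p53 function beside the others. Of the members 1 rose in PC-3, ZMAT3 225725_at, and none fell (background of higher calls 0.528%). In HBC4 5 fell, over MDM2, GDF15, RRM2B and TP53INP1 (background of lower calls 1.38%). In MKN74 4 fell, over MDM2 and TP53INP1 (background of lower calls 0.903%). The median over the 26 probe sets was 0.09 for PC-3, -0.19 for HBC4 and -0.22 for MKN74. Over all probe sets it was 0.011, 0.019 and 0.004 in the same order. MDM2 and ZMAT3 supply 10 and 5 of the 26, so the member medians lean on these genes. On leading probe sets the PC-3 change was positive for MDM2 (0.26) and ZMAT3 (0.68). It was negative for SESN1 (-0.32), CDKN1A (-0.26), TP53INP1 (-0.20), PHLDA3 (-0.16), RRM2B (-0.12) and GDF15 (-0.01). Both G4 arrays lay below both controls for 7 members (PC-3), 12 (HBC4) and 14 (MKN74), where 23.3%, 20.6% and 22% of all probe sets did so.

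**Figure D4:**
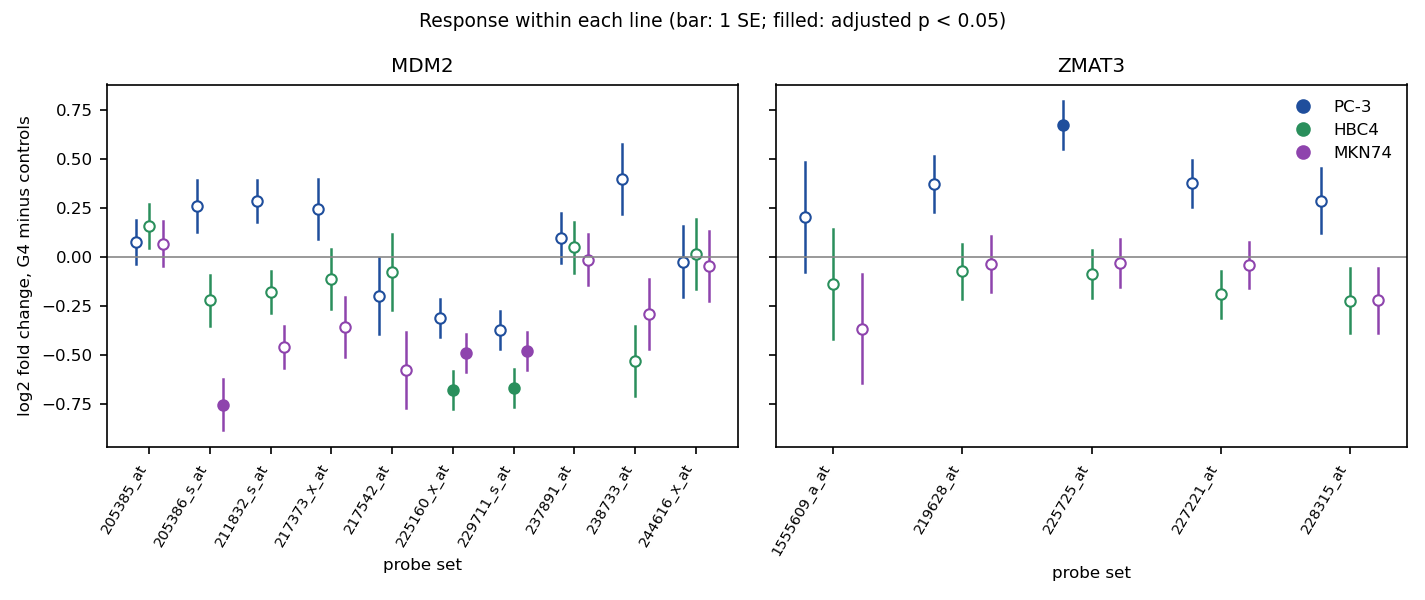
Difference of the 2 G4 arrays from the 2 control arrays within each line in log2 units (vertical axis) for the 10 MDM2 and 5 ZMAT3 probe sets (horizontal axis). Points are limma estimates, bars are 1 SE and filled points have an adjusted p under 0.05; PC-3 lies above 0 for all 5 ZMAT3 probe sets and for several MDM2 probe sets, while 225160_x_at and 229711_s_at lie below 0 in every line.

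In PC-3 ZMAT3 225725_at rose by 0.68 (1.60-fold, adjusted p = 0.0217), and the other 4 ZMAT3 probe sets gave 0.21 to 0.38 without passing. This call was lost without the PC-3 arrays of the reagent alone (0.49, adjusted p = 0.168), (uuaggg)4 (0.61, adjusted p = 0.117) or AS1411 (0.74, adjusted p = 0.0828). The controls themselves differed, at -1.30 and -0.94. In HBC4 and MKN74 the same probe set changed by -0.08 and -0.03. The MDM2 probe sets 225160_x_at and 229711_s_at in PC-3 gave -0.31 (adjusted p = 0.16) and -0.37 (adjusted p = 0.0916), the same sign as in the other lines.

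In HBC4 MDM2 225160_x_at and 229711_s_at fell by 0.68 and 0.67 (adjusted p = 0.00456 for both). TP53INP1 225912_at changed by -0.65 (adjusted p = 0.0209), GDF15 221577_x_at by -0.65 (adjusted p = 0.0394) and RRM2B by -0.50 (adjusted p = 0.0294). The other GDF15 probe sets gave -0.11 (221576_at) and 0.12 (229868_s_at) in HBC4. Those of TP53INP1 gave 0.23 (235602_at) and 0.09 (244721_at), and none of these passed. The GDF15 call held in only 2 of 12 fits without an array, and without the HBC4 arrays of the reagent alone or AS1411 its change was -0.47 and -0.49 (adjusted p = 0.218 and 0.264). RRM2B held in 7 of 12 and was lost without the HBC4 arrays of (uuaccc)4 (-0.39), (uuaggg)4 (-0.55) or AS1411 (-0.44), or without either PC-3 control. TP53INP1 held in 9 of 12 and was lost without the HBC4 arrays of the reagent alone, (uuaccc)4 or AS1411 (adjusted p of 0.088 to 0.171).

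In MKN74 the MDM2 leading probe set 205386_s_at fell by 0.76 (1.69-fold, adjusted p = 0.0229) and TP53INP1 225912_at by 0.77 (adjusted p = 0.0129). This TP53INP1 probe set read only -5.82 to -4.84 in MKN74, and nearness to background cannot be read from centred values. The other TP53INP1 probe sets gave -0.09 (235602_at) and 0.16 (244721_at) and did not pass. MDM2 225160_x_at and 229711_s_at fell by 0.49 and 0.48 (adjusted p = 0.0397 and 0.0418), and neither call held in any of the 12 fits without an array. Without any of the 4 MKN74 arrays the change of 205386_s_at lay between -0.86 and -0.65 and did not pass (adjusted p of 0.065 to 0.161). That of TP53INP1 was lost without the MKN74 arrays of the reagent alone (-0.60), (uuaggg)4 (-0.73) or AS1411 (-0.81).

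Whether the lines responded differently was tested directly. In the F test of the interaction between line and oligonucleotide class no member passed (background 0.720%), with 8 at an unadjusted p under 0.05, against 13.2% of all probe sets. The smallest adjusted p was 0.0765, for MDM2 205386_s_at, whose changes are those of the plot by line (PC-3 0.26, HBC4 -0.22, MKN74 -0.76). The response of PC-3 against the mean response of the other lines passed for no member either (background 0.316%), with 11 members at an unadjusted p under 0.05, against 11.2% of all probe sets. Its median over the members was 0.24, with 4 negative values, against 0.00 and 50.8% negative over all probe sets. MDM2 and ZMAT3 weigh most in the member median, through their number of probe sets. The 3 members with the smallest adjusted p gave 0.73 for ZMAT3 225725_at (95% interval 0.40 to 1.06, adjusted p = 0.0866), 0.75 for MDM2 205386_s_at (0.39 to 1.11, adjusted p = 0.1) and 0.61 for MDM2 211832_s_at (0.32 to 0.90, adjusted p = 0.102). For CDKN1A it was 0.16 (-0.27 to 0.59) and for MDM2 229711_s_at 0.20 (-0.06 to 0.46). The responses of the members in HBC4 or MKN74 are therefore not shown to differ from those in PC-3.

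Other p53 targets and regulators were read from lists of known genes. Of 35 probe sets of 12 measured apoptosis targets, 3 fell with the G4 oligonucleotides (8.57%), over 2 genes. None rose, and the median was -0.08. Over all probe sets 1.53% fell and 0.613% rose. PMAIP1, which encodes the BH3-only protein NOXA, changed by -0.61 on 204285_s_at (adjusted p = 0.0111) and by -0.65 on 204286_s_at (adjusted p = 0.00285). On the latter it read 1.10 and 1.12 in the controls of PC-3 against 0.40 and 0.65 in its G4 arrays, 0.23 and 0.24 against -0.23 and -0.29 in HBC4, and -0.82 and -0.49 against -1.62 and -1.40 in MKN74. The G4 arrays were below the controls in every line, PC-3 included. BCL2L1, which encodes an apoptosis inhibitor of the BCL2 family, fell on 215037_s_at (-0.42, adjusted p = 0.0376). Of 19 probe sets of 10 repair, metabolism and autophagy targets 1 fell (5.26%), that of the lysosomal autophagy regulator DRAM1 (-0.32, adjusted p = 0.0247), and the median was -0.16. None of 13 probe sets of 8 cell cycle arrest targets and none of 22 of 6 feedback genes passed. Of 57 probe sets of 15 p53 regulators and family members 2 rose (3.51%), both of the checkpoint kinase gene CHEK1 (0.34, adjusted p = 0.0403, and 0.38, adjusted p = 0.0238). MDM4 and PPM1D are in both the feedback and the regulator list. With the G4 oligonucleotides MDM4 gave -0.11, PPM1D -0.16, TP73 -0.16 and CDKN2A 0.06, and none of them passed.

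In the interaction between line and oligonucleotide class, 1 of the 35 apoptosis probe sets passed (2.86%, against 0.720% of all) and none of the other lists did. It was 215719_x_at of FAS, a death receptor gene, which is named here because it was the only call and was chosen after its values were seen. In PC-3 it read -0.16 in both controls against 0.16 and 0.29 in the G4 arrays, in HBC4 2.39 and 2.27 against 2.08 and 1.73, and in MKN74 -2.36 and -2.60 against -3.16 and -3.16. The G4 arrays lay above the controls in PC-3 and below them in the other lines, with changes of 0.39, -0.42 and -0.68 (interaction adjusted p = 0.048). The other 4 FAS probe sets did not pass (smallest adjusted p = 0.306). The call held in 1 of 12 fits that each left out an array, the one without (uuaggg)4 in HBC4, and the adjusted p rose to as much as 0.174 in the others.

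Between lines the lists held calls in both directions. Of the apoptosis targets 15 probe sets were lower and 11 higher in PC-3 than in the mean of the others, of the arrest targets 7 and 3, of the repair, metabolism and autophagy targets 11 and 6, of the feedback genes 8 and 7, and of the regulators 16 and 23. These counts are out of 35, 13, 19, 22 and 57 probe sets, beside 32.4% lower and 26.8% higher over all probe sets, and are not read as particular to the lists. Farthest below on leading probe sets were RCHY1 (-1.74), a ubiquitin ligase for p53, PERP (-1.73), a desmosomal p53 target, TP73 (-1.45) and PLK2 (-1.41). The TP73 difference came from MKN74, since PC-3 and HBC4 differed by -0.19 (adjusted p = 0.177). Farthest above were CMBL (3.94), CDKN2A (3.84), CCNG2 (2.62) and HIPK2 (1.81). Most of the CMBL difference came from MKN74, which read -5.97 to -5.01, while PC-3 exceeded HBC4 by 1.14 (adjusted p = 6.9e-05). CDKN2A, whose locus also encodes ARF, an inhibitor of MDM2, read 3.01 to 3.29 in PC-3, -0.18 to 0.22 in HBC4 and -1.64 to -1.24 in MKN74. PC-3 exceeded HBC4 8.49-fold and MKN74 24.2-fold. PPM1D, the phosphatase that switches p53 signalling off, was higher in PC-3 by 0.76 and exceeded both lines. MDM4, an inhibitor of p53 related to MDM2, was higher by 0.55, which came from MKN74: PC-3 exceeded MKN74 by 1.29 and differed from HBC4 by -0.20 (adjusted p = 0.168).

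The genes with the most similar pattern to each member were sought among 3975 genes whose leading probe set varied by an SD of at least 0.2 once line means were removed. Pearson correlations over 12 arrays, which share the treatments and are given as a description, were highest for TP53INP1 with HLA-C (0.980) and HLA-F (0.978), genes of MHC class I. CDKN1A was closest to CREBRF (0.935) and S100A2 (0.927), and MDM2, on 205386_s_at, to DOCK8-AS1 (0.955) and AMPD3 (0.941). GDF15 was closest to MUC20 (0.968) and CIMAP1B (0.962), and SESN1 to RBBP6 (0.933) and C1RL (0.929). ZMAT3 was closest to NCOA6 (0.953) and ZNF607 (0.948), RRM2B to SLC6A14 (0.949) and EPB41L4A (0.940), and PHLDA3 to SLC37A1 (0.971) and SCARB2 (0.968). No gene was among the closest 2 of more than 1 member, which with 2 picks from 3975 genes says little about the members. SESN1, RRM2B and PHLDA3 had SDs of 0.15, 0.16 and 0.18, under the 0.2 required, and could not themselves be picked.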

How the data were processed

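Total RNA from 12 samples, 1 per cell line and treatment, was labelled from 100 ng and hybridised to Affymetrix human genome arrays, per the labels' protocols. The deposited values are log2 expression from RMA, per the submitters' processing notes (version not given). They had also been centred, by an unstated step: the median of every probe set is 0, within 5e-07. The log base was taken as 2 from the range of the values, of which the highest is 11.2. That range does not by itself fix the base. Centring keeps differences between arrays and removes levels and detection, and depth does not apply. Probe sets were named from the platform annotation. Of 54675, 62 were array controls, 1801 named several genes, 11721 are unnamed here and 41091 named a single gene and were tested. The symbols of all 26 member probe sets matched RefSeq genes. Listed p53 genes without a probe set named here are not analysed here, and the written-out sequences of the RNA oligonucleotides are not reported here.

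lmFit and eBayes of limma 3.58.1 (R 4.3.3) were run over all arrays and every probe set naming a single gene. One model had terms for treatment and line (6 residual degrees of freedom). The cell line is a block because same-numbered replicates are arrays of the same line. The line model held a mean per line and oligonucleotide class (6 residual degrees of freedom), with both arrays of a class treated as replicates although their treatments differ. Adjusted p-values are Benjamini-Hochberg over 41091 probe sets, threshold 0.05; SD is over the 3 line differences, intervals are 95%. Fold changes are antilogs of log2 differences. The scripts were tested on simulated data.

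The members and lists were chosen with earlier results of these data known. All member probe sets are accounted for. Named beyond them are list genes with a probe set past the threshold in the G4 comparison, the 4 in each direction farthest from the other lines in PC-3, and TP73, MDM4, PPM1D and CDKN2A, beside FAS, chosen after its values were seen. Alternatives were quantile normalization, gene means, a probe set per gene (that with the largest SD of line means), all probe sets, robust eBayes, no block, and fits without an array or a line.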

Additional observations from a re-analysis of the deposited data

Results flagged for a closer look

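In 4 of 78 groups of 4 arrays (26 probe sets in 3 lines), a single array stood apart from the other 3 by Dixon's criterion, about the share of 1 in 20 that chance gives. SESN1 218346_s_at read 0.36 with the reagent alone in MKN74, where the others lay between -0.03 and 0.03. ZMAT3 227221_at read 1.80 with the reagent alone in HBC4 (others 1.41 to 1.45). In PC-3 the (uuaggg)4 array read -1.35 for ZMAT3 228315_at (others -1.93 to -1.85) and -0.23 for PHLDA3 218634_at (others -0.01 to 0.03).

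In some probe sets, all of MDM2 or ZMAT3, every G4 array of a line lay on the opposite side of its controls from that of another line. Such separation is common within a single line, where 20.6% to 23.3% of all probe sets had both G4 arrays below both controls. How many of all probe sets lay on opposite sides between lines was not counted. The cases that follow are therefore not read as particular to the members. MDM2 205386_s_at changed by 0.26 in PC-3 and -0.76 in MKN74, and the F test of the interaction over the 3 lines gave an adjusted p of 0.0765. MDM2 211832_s_at changed by 0.29 (PC-3), -0.18 (HBC4) and -0.46 (MKN74) (adjusted p = 0.105). MDM2 217373_x_at changed by 0.24 in PC-3 and -0.36 in MKN74 (adjusted p = 0.385). MDM2 238733_at changed by 0.40 (PC-3), -0.53 (HBC4) and -0.29 (MKN74) (adjusted p = 0.219). ZMAT3 225725_at changed by 0.68 in PC-3 and -0.085 in HBC4 (adjusted p = 0.112), and ZMAT3 228315_at by 0.29 and -0.22 (adjusted p = 0.445). None of these interactions passed, and the difference between a given pair of lines was not tested.

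FAS 215719_x_at passed the F test of the interaction between line and oligonucleotide class (adjusted p = 0.048), its changes being 0.39 (PC-3), -0.42 (HBC4) and -0.68 (MKN74).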

How the results depend on the processing

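Of the 26 member probe sets, 20 to 21 differed between PC-3 and the mean of the others in the 12 fits that each left out an array. In the same fits 53.9% to 58.5% of all probe sets differed, so such a call is common. Direction was followed for leading probe sets and for members called in the G4 comparison or within a line. None of these that passed changed its direction under the alternatives run. The direction of other line differences and of list genes was not followed. With quantile normalization, and with all probe sets tested, 2 member probe sets in place of 4 were called in MKN74. With 1 mean value per gene, which averages MDM2 and TP53INP1 with probe sets that did not pass, the member genes called were 0 in place of 3 for the G4 comparison, 0 in place of 1 in PC-3, 1 in place of 4 in HBC4 and 0 in place of 2 in MKN74, and the share of genes with an interaction was 1.29% (1.25% with the probe set of largest SD of line means) against 0.720%. With no replicate block the spread between lines enters the error, and 0% of probe sets and 0 members were called. Without PC-3 0.518% of probe sets were called in the G4 comparison, without HBC4 0.192% and 0 members, and without MKN74 0.830% and 0 members. Leaving out each array in turn gave 2 to 4 members and 0.883% to 1.65% of probe sets in the G4 comparison, 0 to 1 member in PC-3, 2 to 4 in HBC4, 0 to 2 in MKN74, and an interaction in 0.241% to 0.470% of probe sets. The same fits gave 0.0706% (without AS1411 in PC-3) to 0.282% in place of 0.316% for the response of PC-3 against the other lines, 0.0389% (without (uuaggg)4 in PC-3) to 0.212% in place of 0.217% for (uuaggg)4 against (uuaccc)4, and 0.141% (without AS1411 in PC-3) to 0.423% in place of 0.465% for AS1411 against the reagent alone, with 0 members in each. The FAS interaction was lost with quantile normalization (adjusted p = 0.103), all probe sets (0.0563) and robust eBayes (0.0531). With 1 array per line and treatment these fits have few residual degrees of freedom, and a line's class with a single array left is assumed to vary like the others. Signal over background cannot be read from centred values.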
